A study of Menidia menidia with 24 samples.

Results

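The 150 transcripts described here had lower mean levels in larvae of HypOA-treated parents than in larvae of control parents, whether the larvae themselves were reared under control or under HypOA conditions. HypOA is the combination of hypoxia and acidification. They were chosen from 20210 genes by a rule on group means of log2 CPM, where CPM is the read count scaled to a common library size. A gene needed a mean of at least 1 CPM (16527 genes) and a difference between rearings, averaged over both parental treatments, of less than 0.3 on the log2 scale in either direction (13173 genes). The 150 genes with the largest value of the smaller of the differences CC−HC and CH−HH were then taken. Their lower level after parental HypOA is therefore how they were found, and all levels of the 4 groups are given below as a description.

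The libraries came from 24 larvae of the Atlantic silverside (*Menidia menidia*), an estuarine fish, each sequenced whole at 19 days post-fertilization. The larvae were wild type offspring of wild-caught adults that, per the study, were already mature. These adults had been held under control or HypOA conditions in the days before spawning, with the adult HypOA exposure applied at night. CC larvae had control parents and control rearing, CH larvae had control parents and HypOA rearing, HC larvae had HypOA-treated parents and control rearing, and HH larvae had HypOA-treated parents and HypOA rearing (n = 6 larvae per group). Each parental treatment was represented by the gametes of its own adults, so the treatment and the adults that carried it cannot be told apart. Per the study, the control mothers were on average longer and heavier than the HypOA-treated mothers. The control fathers were on average slightly shorter and lighter than the HypOA-treated fathers. Per the study's methods, the larvae of a treatment were taken 2 to a rearing container, so larvae counted in n = 6 share containers. Which larvae shared one is not in the labels, and the p-values treat all larvae as independent and measure the spread between them. After hatching, larvae of HypOA-treated parents grew more slowly on average over both rearings, per the study, and fewer of them survived. Size and stage are not given for the sequenced larvae, and their part in the members' levels was not tested. In RNA from whole larvae, fewer cells of a type and less RNA per cell cannot be told apart.

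A parent's environment can reach its offspring through the messenger RNA, yolk, hormones and mitochondria laid down in the egg, and through chromatin marks or small RNAs carried by eggs and sperm. Offspring of different adults also differ in the alleles they inherit, which can set the level of a transcript for life. A transcript whose level follows the parents under both rearings is the simplest form of a parental effect, in contrast to a parental effect that appears only when the offspring meet the stressor themselves.

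None of the 150 members had a gene name in the tables used here. The gene identifiers (mme followed by a number) come from the silverside annotation used for counting, and the part of the study's own gene table used here pairs identifiers with symbols for 1199 of the 16527 genes. That table was held only in part, and the part lists transcripts by their difference between CH and CC larvae, while the rule left out genes with a large difference between rearings. Only 293 of the 13173 genes within the bound had a symbol, 24 of the 3845 genes that were lower under both rearings, and 0 of the 150 members. No member was matched in the RefSeq gene table either. The members are therefore described by identifier, level, spread and the named genes they varied with, and no function is given to any of them.

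Counted reads per larva ranged from 11688851 to 16120500, and reads outside annotated features from 19.2% to 23%. Larva CH 3 stood apart with 7.88% of its reads placed at several sites, against 4.95% to 5.77% in the other 23 larvae. No pair of larvae within a group had counts within sampling noise of each other (lowest chi-square per degree of freedom 12.6).

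The size of the differences was moderate in most members. The median difference was 0.54 between CC and HC (range 0.39 to 2.16) and 0.52 between CH and HH (range 0.38 to 1.86), on the log2 CPM scale. These medians correspond to levels 1.45-fold and 1.43-fold higher in the offspring of control parents. Over all 16527 genes the same medians were 0.01 and −0.01. Both differences were at least 0.5 in 60 members and at least 1 in only 3 of them, mme18589, mme19914 and mme07849. The rule bounded only the average of the rearing differences, and single members differed more between rearings than the bound. The difference CH−CC ranged from −0.91 to 0.57 (median −0.05) and HH−HC from −0.49 to 0.58 (median −0.03), with opposite signs in 41 of the 150 members.

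**Figure D1:**
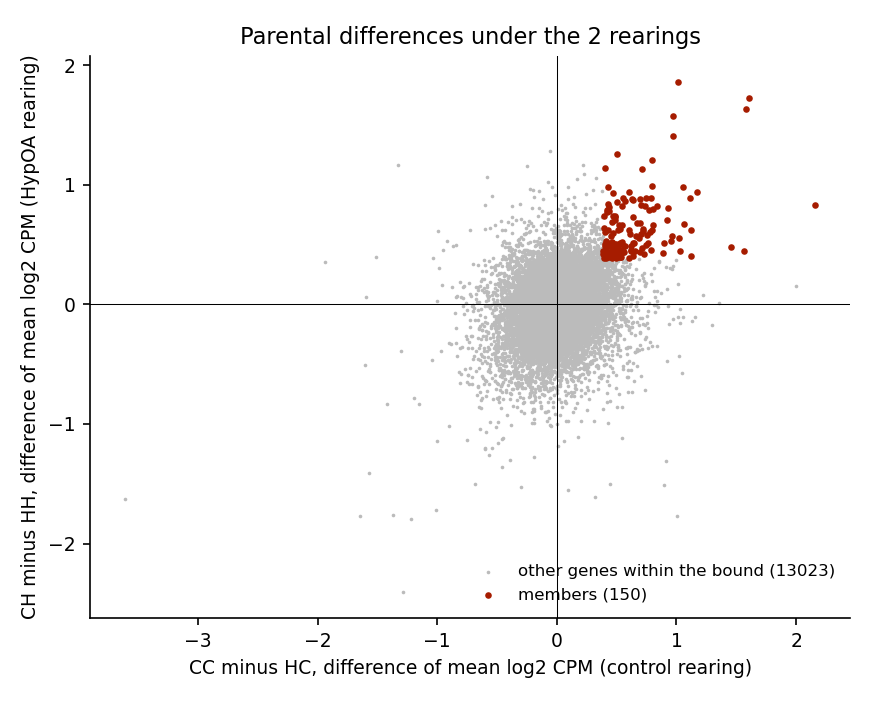
Difference of mean log2 CPM between offspring of control and HypOA-treated parents, under control rearing (x axis, CC−HC) and under HypOA rearing (y axis, CH−HH), with 1 point per gene within the bound on the rearing difference. The 150 members (dark red) fill the upper right corner from 0.38 upwards on both axes, which is where the rule took them from, and the grey cloud of the other genes is centred near 0.

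The edge of the selection was not a gap in the data. The last genes taken, mme01657 and mme02018, had a smaller difference of 0.385 and 0.384. The next genes in order, mme00290 and mme16005, had 0.384 and 0.383 and were not members. Members and the genes just below them thus differed by less than 0.01 in the value that separated them. In the opposite direction, 176 genes within the bound were higher after parental HypOA under both rearings by at least the smallest difference of a member. At any size of difference, 3845 genes within the bound were lower and 3625 were higher under both rearings.

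Members were spread over a wide range of abundance and were on average scarcer than other genes. Their mean level ranged from 1.02 to 489 CPM with a median of 6.74 CPM, against 14.3 CPM over all 16527 genes. Of the members, 67 were under 5 CPM (44.7%, against 22.3% of all genes), 49 were from 5 to under 20 CPM and 34 were at 20 CPM or more. The median within-group standard deviation of log2 CPM was 0.48 for genes from 1 to under 5 CPM and 0.23 at 20 CPM or more. Choosing large differences of means favours genes with a large spread, so the members' scarcity may partly have been set by the choice. A single annotated transcript entry stood behind 147 of the members.

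Taken over each whole larva, the members separated the parental treatments in every library, as genes chosen on these larvae must tend to do. The median over the 150 members of the log2 CPM relative to each member's own mean was between 0.20 and 0.50 in the 6 CC larvae and between 0.23 and 0.41 in the 6 CH larvae. It was between −0.45 and −0.06 in the 6 HC larvae and between −0.34 and −0.22 in the 6 HH larvae. Single larvae were far from uniform. In larva HC 5, which was nearest to the control-parent larvae, 65 of 150 members lay above their mean, compared with 23 to 49 in the other 5 HC larvae. In larva CC 1, 94 members lay above their mean, the lowest number among CC and CH larvae.

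**Figure D2:**
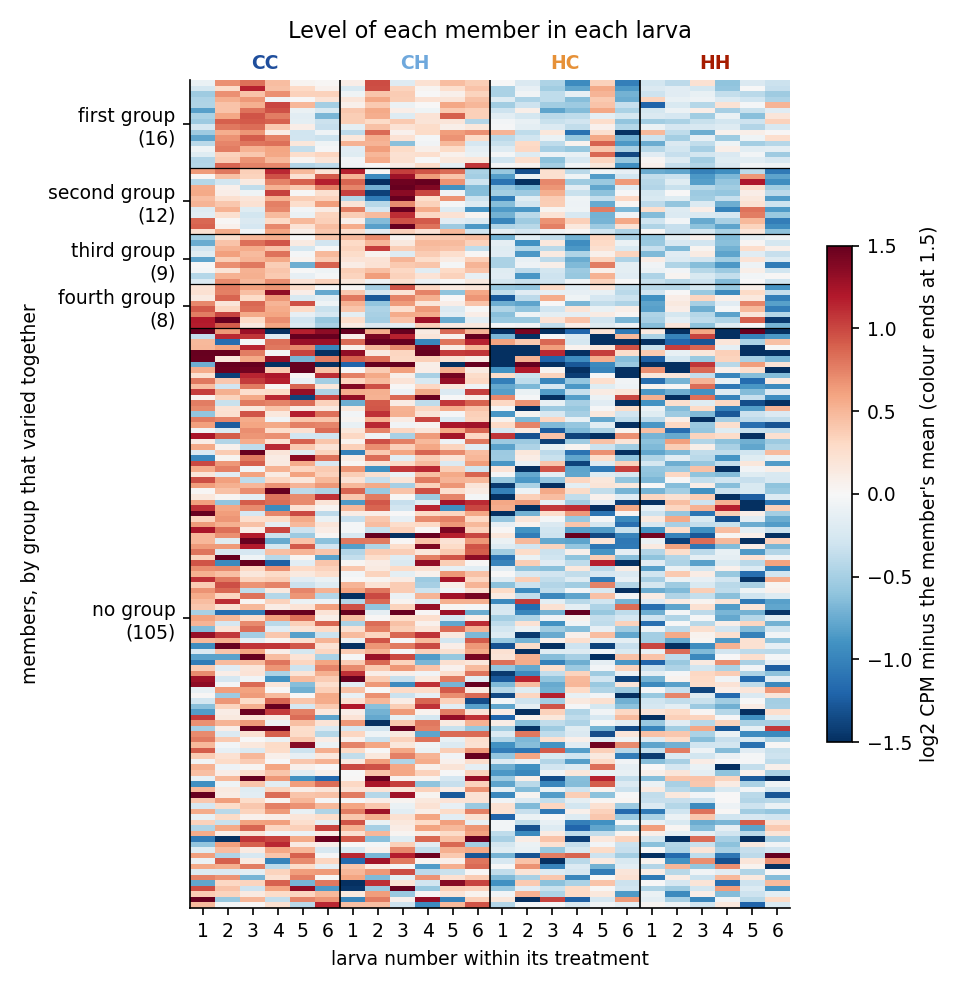
Level of each of the 150 members (rows) in each of the 24 larvae (columns, by treatment), as log2 CPM minus the member's mean over all larvae, with red above and blue below the mean and colour ending at 1.5. Members of the 4 groups that varied together are at the top. Larvae CC and CH are mostly red and larvae HC and HH mostly blue, while larva CC 1 is blue and larva HC 5 red over many members of the first and the third group.

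To read the members in larvae that had no part in choosing them, each larva was left out in turn, 150 genes were chosen by the same rule from the other 23 larvae, and the left-out larva was placed above or below the midpoint of the 2 parental group means of its own rearing. Between 114 and 130 of the 150 genes chosen in this way were members. In 22 of 24 left-out larvae more than 50% of the chosen genes lay on the larva's own parental side, from 52.0% to 71.3%. The exceptions were larva CC 1 with 46.0% (69 of 150 genes) and larva HC 5 with 44.7% (67 of 150 genes). Over all genes within the bound, the share on the larva's own side was between 47.2% and 55.6%.

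The distance in left-out larvae was smaller than in the larvae that chose the genes. The median distance from the midpoint towards the larva's own side was 0.13 on the log2 scale (range over larvae −0.07 to 0.26), against a median of 0.28 (0.27 to 0.30) for the group means of the other 23 larvae. By treatment, the left-out median was 0.18 for CC and 0.12 for CH larvae, and 0.13 for HC and 0.19 for HH larvae. It was above 0 in 5 of 6 CC, 6 of 6 CH, 5 of 6 HC and 6 of 6 HH larvae. Any 2 of these choices share 22 larvae, so the 24 values are not independent, and no test was made on them. Left-out larvae also came from the same adults as the larvae that chose the genes. Since larvae were taken 2 to a rearing container, the container mate of a left-out larva stayed among those that chose the genes.

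**Figure D3:**
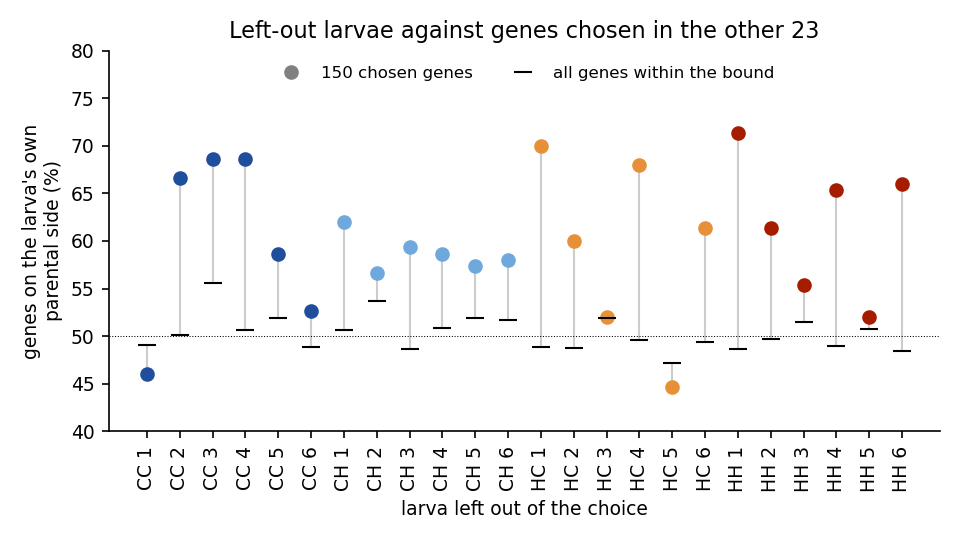
Share of genes on the larva's own parental side of the midpoint between parental group means, for each larva when it was left out of the choice (filled points, 150 genes chosen in the other 23 larvae; black dashes, all genes within the bound; dotted line, 50%; the y axis starts at 40%). Points lie above 50% in 22 larvae and below it in CC 1 (46.0%) and HC 5 (44.7%).

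Across all genes, 20 members passed the edgeR quasi-likelihood test for the parental treatment averaged over rearings (FDR below 0.05), all with lower levels after parental HypOA. Of the 17262 genes tested, 51 were called lower, which is 0.295% of genes, and 61 (0.353%) were called higher. The rule had used this contrast, so the members' share of calls is set beside the background without reading anything from it. At an unadjusted p below 0.05, 124 members were lower, against 8.76% of all genes lower and 8.64% higher. Fitted log2 fold changes were negative in all 150 members, with a median of −0.60 and a median standard error of 0.21. For the 20 called members they ran from −0.43 to −1.21, at mean levels of 3.06 to 72.0 CPM. All 20 had a spread between larvae below the median of the members, and only 1 of the 12 members with the largest differences was among them.

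The number of calls rested on single larvae. Leaving out 1 larva changed the 20 members called to between 2 and 35. The number rose to 35 without CC 1 and without HC 5, and it was 2 without CC 2, HC 2, HC 3 or HH 6. It fell by more than 1.5 times without any 1 of CC 2, CC 3, CC 4, CH 1, CH 2, CH 4, CH 6, HC 1, HC 2, HC 3, HC 4, HC 6, HH 1, HH 3, HH 4 and HH 6.

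Within single rearings the calls were few. In HH versus CH, 1 member (mme05012) was called lower by the edgeR quasi-likelihood test, where 0.0116% of all genes were called lower, and 79 members had an unadjusted p below 0.05, all lower (of all genes, 7.43% were lower and 7.02% higher at this p). That call was lost without CH 1, HH 1, HH 3 or HH 4, with limma-voom, with a replicate block and with only HH and CH larvae in the fit (0 members called in each). DESeq2 called 9 members in this contrast, where it called 0.649% of all genes lower, and limma-voom called 0.00579% of all genes lower. In HC versus CC, no gene was called lower by edgeR (0% of all genes), and 77 members had an unadjusted p below 0.05, all lower (of all genes, 6.28% were lower and 6.9% higher at this p). DESeq2 called 8 members lower in HC versus CC (0.406% of all genes) and limma-voom called 0 (0% of all genes). The rule ranked genes on the differences CC−HC and CH−HH themselves. The lower direction of the members and their shares of low p-values and calls in these contrasts were therefore largely set by the choice. These shares are set beside those of all genes without reading anything from them.

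The member with the lowest FDR was mme05012. Its level in CC larvae was lowest at 55.2, median 70.6 and highest at 105 CPM, and in CH larvae it was lowest at 34.2, median 88.5 and highest at 107 CPM. In HC larvae the lowest, median and highest values were 19.1, 40.1 and 56.5 CPM, and in HH larvae they were 22.9, 26.4 and 36.3 CPM. The highest HC larva thus reached just above the lowest CC larva, and 1 CH larva fell within the range of the HH larvae. The log2 fold change for parental HypOA averaged over rearings was −1.21 ± 0.17 (SE; edgeR quasi-likelihood FDR = 0.00338), and in HH versus CH it was −1.5 ± 0.24 (edgeR FDR = 0.0189), a call that did not hold in the fits named above. Its FDR for the parental treatment stayed between 0.000162 and 0.0119 when each larva was left out.

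Member mme19360 had the next lowest FDR. The values for lowest, median and highest larva were 8.63, 12 and 14.6 CPM in CC and 5.64, 6.56 and 8.49 CPM in HC. Under HypOA rearing they were 6.81, 9.20 and 11.2 CPM in CH and 4.73, 6.25 and 7.95 CPM in HH. All HC larvae lay below all CC larvae, while HH and CH larvae overlapped. The log2 fold change for the parental treatment was −0.63 ± 0.11 (SE; edgeR quasi-likelihood FDR = 0.0171), and with 1 larva left out the FDR stayed between 0.0114 and 0.0467.

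Member mme00639 was the steadiest of all members, with a pooled standard deviation within groups of 0.18 on the log2 scale. It ranged from 14.3 to 22.6 CPM in CC (median 18.5), from 14.4 to 16.9 CPM in CH (median 15.9), from 11.3 to 14.9 CPM in HC (median 13.6) and from 10.7 to 14.6 CPM in HH (median 11.5). The difference was small and the groups overlapped in a few larvae, among them HH 4 at 14.6 CPM. Its log2 fold change was −0.43 ± 0.08 (SE; edgeR quasi-likelihood FDR = 0.0344), and the FDR without 1 larva reached 0.0633, above the threshold in 6 of 24 fits.

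Member mme09040 differed most clearly under control rearing. Its CC larvae lay in a narrow range from 24.5 to 27.7 CPM (median 25.9), while HC larvae ranged from 5.82 to 19.7 CPM (median 14). In CH larvae it ranged from 12.2 to 27.4 CPM (median 23.1) and in HH larvae from 11 to 18.6 CPM (median 13). The gap between CC and HC was open, and under HypOA rearing only larva CH 3 reached down into the range of the HH larvae. The log2 fold change for the parental treatment was −0.81 ± 0.17 (SE; edgeR quasi-likelihood FDR = 0.0398), and the FDR without 1 larva reached 0.0727, above the threshold in 12 of 24 fits.

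The other called members named by the rule were mme04829, mme08359, mme18670, mme00828, mme12883, mme10439 and mme11420, with fold changes on the log2 scale of −0.47 (mme11420) to −0.98 (mme18670). Member mme00828 had medians of 26.2 CPM in CC, 21.5 CPM in CH, 14.7 CPM in HC and 13.1 CPM in HH. All HH larvae of this gene lay below all CH larvae, as they did in mme04829, and all HC larvae of mme08359 lay below all CC larvae. Calls of these 7 members were lost in some of the fits without 1 larva, in 8 of 24 for mme04829 up to 16 of 24 for mme11420.

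Complete separation of the groups was rare. All 6 HC larvae lay below all 6 CC larvae in 4 members, mme09040, mme08359, mme19360 and mme04488, the last of which was named after its values were seen. This held for 0.2% of all genes. All 6 HH larvae lay below all 6 CH larvae in 6 members, against 0.841% of all genes. The rule took large differences between these same groups, so nothing is read from the members' shares. No member, and none of the 16527 genes, was separated under both rearings.

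**Figure D4:**
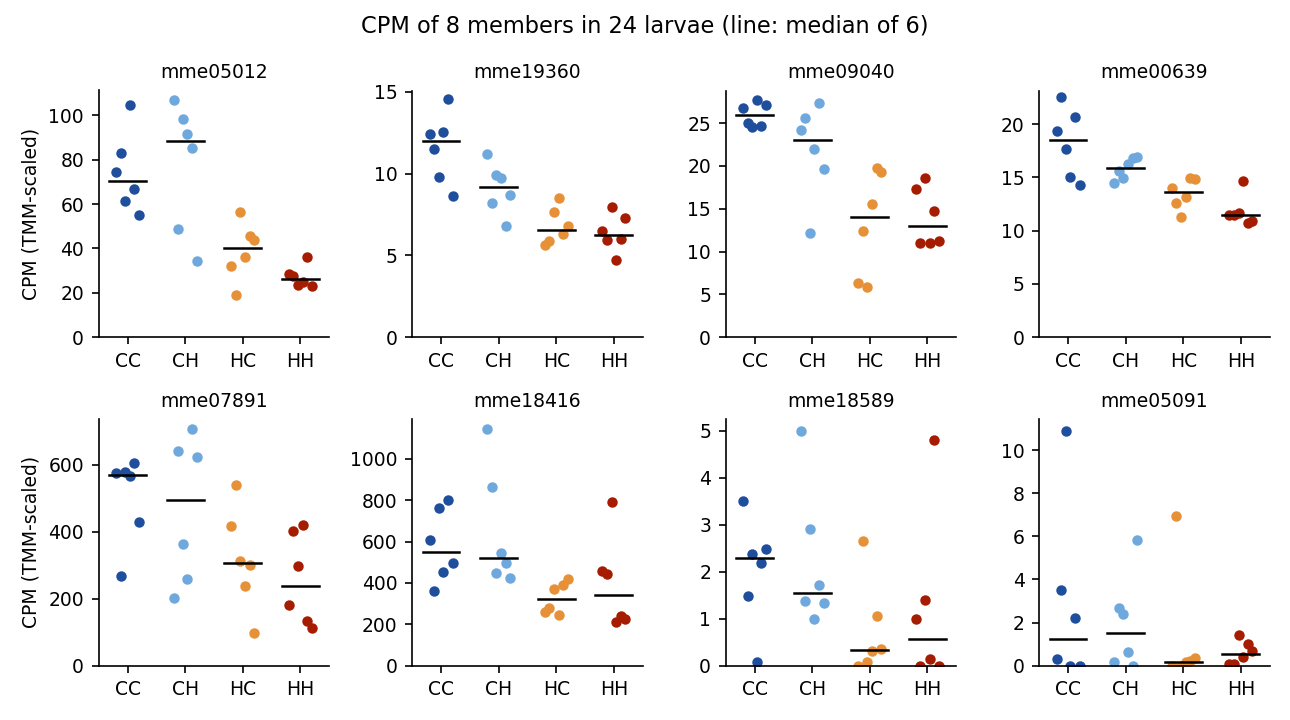
CPM (TMM-scaled, linear y axis from 0) of 8 members in each of the 24 larvae, with the median of 6 larvae as a black line. The upper row holds called members, from mme05012 with medians of 70.6 (CC) and 88.5 (CH) against 40.1 (HC) and 26.4 (HH) to the steadier mme00639, and the lower row holds 2 abundant members and 2 scarce ones in which larvae of every treatment lie near 0 or far above their group.

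Most members with the largest differences were scarce and uneven between larvae. Member mme18589, with the largest smaller difference of 1.60, had medians of 2.29 CPM in CC, 1.55 CPM in CH, 0.328 CPM in HC and 0.563 CPM in HH. Larva CC 4 was low at 0.0788 CPM, and larvae HC 2 at 2.65 CPM and HH 5 at 4.8 CPM were high, while the CH larvae had at least 0.991 CPM. Its fitted log2 fold change of −1.16 ± 0.60 (SE) did not pass the edgeR quasi-likelihood test (FDR = 0.326).

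Member mme19914 had medians of 2.36 CPM in CC, 1.81 CPM in CH, 0.711 CPM in HC and 0.461 CPM in HH. The lowest CC larva had 0.758 CPM and the highest HC larva 1.48 CPM, so the groups overlapped. Its log2 fold change of −1.59 ± 0.42 (SE) missed the threshold (edgeR quasi-likelihood FDR = 0.0721).

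Member mme05091 was near 0 in some larvae of every treatment and high in a few. In CC larvae it ranged from 0 to 10.9 CPM (median 1.24), in CH larvae from 0 to 5.84 CPM (median 1.5), in HC larvae from 0 to 6.95 CPM (median 0.189) and in HH larvae from 0.0617 to 1.4 CPM (median 0.550). It had the largest spread of all members, and its fitted log2 fold change of −1.39 ± 0.81 (SE) did not pass (edgeR quasi-likelihood FDR = 0.385). Members mme07849, mme18365, mme08629, mme06915, mme14625 and mme19990 were also under 5 CPM on average and did not pass. A larva with no counted read was found in 6 of the 150 members.

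Abundant members had differences of similar size with large spread. Member mme18416, the most abundant, had medians of 552 CPM in CC, 521 CPM in CH, 324 CPM in HC and 343 CPM in HH, with ranges of 361 to 800, 424 to 1146, 243 to 419 and 210 to 792 CPM. Under both rearings the ranges overlapped, and the log2 fold change of −0.77 ± 0.21 (SE) did not pass (edgeR quasi-likelihood FDR = 0.0776). Member mme07891 had medians of 571, 494, 307 and 239 CPM in CC, CH, HC and HH, and member mme01728 had 274, 244, 159 and 111 CPM. The medians of mme00877 were 236, 190, 153 and 137 CPM in the same order, and those of mme02018 were 300, 258, 243 and 226 CPM. None of these 5 passed the test for the parental treatment.

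No member was called for the rearing or for the interaction of parental and offspring treatment by edgeR, DESeq2 or limma-voom. The bound had kept genes with a large average rearing difference out of the choice. The interaction is the difference between CC−HC and CH−HH, and ranking by the smaller of them favours genes in which both are alike. The few members with a low p for the rearing or the interaction may therefore largely have been set by the choice. In CH versus CC, where 4.26% of all genes were called lower and 4.99% higher by edgeR, 3 members had an unadjusted p below 0.05 (mme08359, mme16944 and mme19360, all lower in CH), against 12.8% of all genes lower and 12.6% higher. In HH versus HC, with 0.0174% and 0.00579% of genes called, these were mme05012, lower in HH, and mme16873, higher in HH, against 4.41% of all genes lower and 3.82% higher. Members mme16944 and mme16873 were named after their values were seen. For the interaction, for which 0 genes were called, 0 members had an unadjusted p below 0.05 in edgeR, against 5.61% of all genes with a negative and 5.08% with a positive estimate. DESeq2 gave 1 member and limma-voom 0 at this p.

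Levels of the members varied more between larvae of the same treatment than those of other genes. The standard deviation of log2 CPM had a median over the members of 0.50 for CC and 0.47 for CH larvae, and of 0.52 for HC and 0.46 for HH larvae. Over all 16527 genes it was 0.32, 0.31, 0.27 and 0.25 in the same order. The larger spread was not only a property of scarce genes. In the 34 members at 20 CPM or more the median was 0.46 against 0.23 for genes of that level, and all 34 lay above that value. The rule did not use the spread, but the error of a mean of 6 larvae grows with it, and it is given as a description.

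The spread also differed from other genes in how it compared between parental treatments. Over all genes of at least 20 CPM, the standard deviation was lower in HC than in CC in 66.9% and lower in HH than in CH in 68.3%. Of the 34 members at this level, it was lower in HC than in CC in 17 and lower in HH than in CH in 15. Over all 150 members the numbers were 68 and 73. Offspring of HypOA-treated parents thus varied less than offspring of control parents in most genes of that level, and in about as many members as not. Choosing large differences of means favours genes with a large spread in any of the groups, HC and HH included. This contrast with other genes may therefore partly have been set by the choice.

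Within treatments the members were not a single coordinated set. After the group means were removed, 4.64% of the 11175 pairs of members had a correlation above 0.5 over the 24 larvae, against 4.01% of all pairs of genes, and 1.66% against 3.63% had a correlation below −0.5. The median correlation was 0.02. Genes that vary together tend to pass a rule on group means together, and genes that vary against each other tend not to. These shares may therefore partly have been set by the choice. Average-linkage clustering of these within-group deviations gave 4 groups of at least 5 members that varied together, with 16, 12, 9 and 8 members, and 105 members fell outside them. The groups were cut on these same correlations, so the high correlations inside them follow from the cut. Other genes were not grouped in this way, so no background for the number of groups is given. Without 1 larva, from 30 (without HC 5) to 52 (without HH 4) members fell in such groups. Correlations across genes within the same 24 larvae share depth and scaling, genes are not independent replicates, and all values here are descriptions without p-values.

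The first group (16 members, median correlation between pairs 0.61) was led by mme03476 and mme14898. In mme03476 the medians were 53.5 CPM in CC, 52.9 CPM in CH, 34.8 CPM in HC and 38.1 CPM in HH. Larva CC 1 had the lowest value of the CC larvae at 25.8 CPM, and larva HC 5 had the highest of the HC larvae at 65.8 CPM. Averaged over the 16 members, CC 1 lay at −0.42 and HC 5 at 0.40 relative to the members' means on the log2 scale, so the order of the parental treatments was turned around for these larvae.

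The third group (9 members, median correlation 0.58), led by mme14970 and mme14869, had the same larvae against the trend, CC 1 at −0.35 and HC 5 at 0.33. The correlation between the mean deviations of the first and the third group was 0.71. In mme14970 all HH larvae (13.6 to 21.6 CPM) lay below all CH larvae (23.5 to 30.0 CPM), while CC larvae ranged from 12.7 to 40.7 CPM and HC larvae from 11.1 to 26.2 CPM. The median of the digestive enzyme markers went against the third group (r = −0.47, rho = −0.32) and the first (r = −0.42, rho = −0.20), and that of the leukocyte markers against the third (r = −0.37, rho = −0.34). The first group also went against log2 counted reads (r = −0.37, rho = −0.27), which for the third group had r = −0.21 and rho = 0.06. It went against the median of the striated muscle markers (r = −0.26, rho = −0.32) and the share of reads outside annotated features (r = −0.20, rho = −0.30). Larva CC 1 had the most counted reads of all larvae (16120500), while HC 5 had 12809116. The part of these tissues and measures in the members was not tested.

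The second group (12 members, median correlation 0.68) contained mme05012 and was led by mme15060 and mme06616. In mme15060 larva CH 3 reached 158 CPM, against a median of 46.1 CPM in CH larvae, 54.1 CPM in CC, 39.7 CPM in HC and 29.4 CPM in HH. Averaged over the 12 members, larva CH 3 lay at 1.27 on the log2 scale. Larvae CH 2 (−0.69) and CH 6 (−0.44) were low, and larvae HC 3 and HH 5 (0.40 each) were high. The mean deviation of this group went with the share of reads placed at several sites (r = 0.57, rho = 0.40 over 24 larvae), which was highest in CH 3. It also went with the median of the striated muscle markers (r = 0.38, rho = 0.41) and against the share of counts in the 10 most abundant genes (r = −0.43, rho = −0.20). The part of these measures in the members was not tested.

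The fourth group (8 members, median correlation 0.60) was led by mme15509 and mme15625 and contained the abundant mme00877. Larva CH 2 (−0.54) was again low and larva HH 5 (0.36) high, larva CC 6 (−0.33) was low as well, and the correlation of this group with the second was 0.60. In mme15625 the medians were 25.7 CPM in CC, 16.9 CPM in CH, 16 CPM in HC and 12.6 CPM in HH. The fourth group varied with the median of the connective tissue markers (r = 0.50, rho = 0.51) and against that of the neuron markers (r = −0.42, rho = −0.44) and the share of counts in the 10 most abundant genes (r = −0.57, rho = −0.50). The part of tissue composition in these members was not tested.

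**Figure D5:**
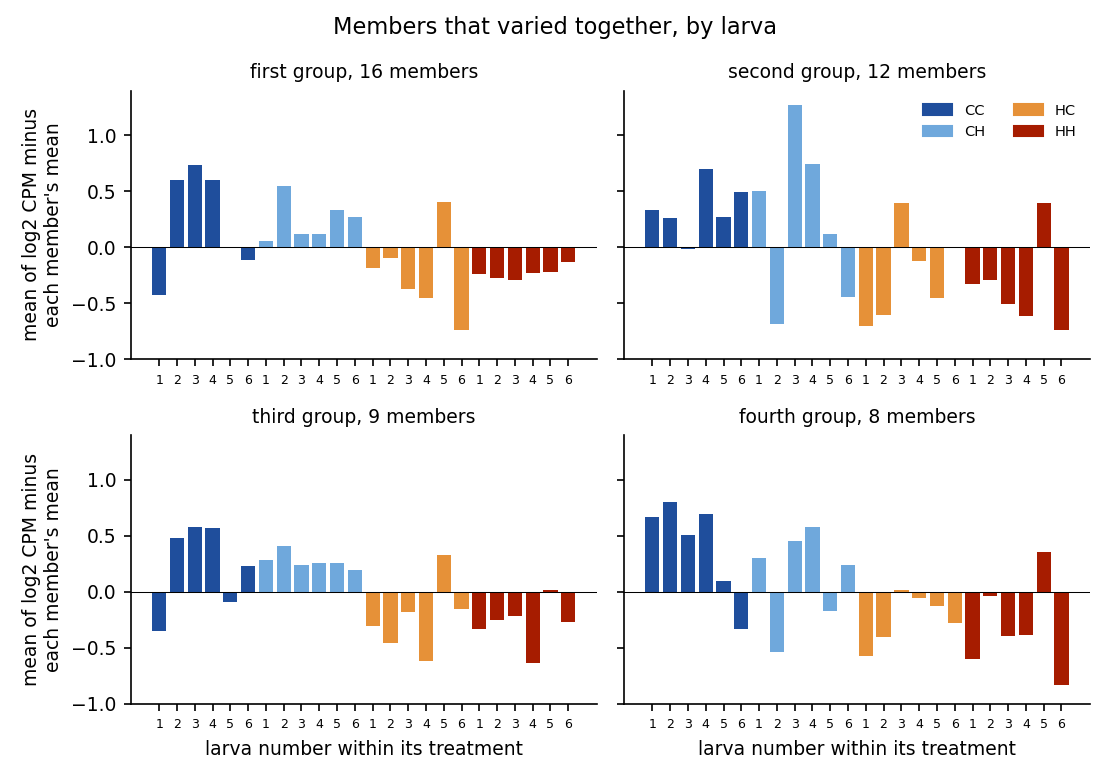
Mean over the members of each of the 4 groups that varied together of log2 CPM minus each member's mean (y axis), for each larva (bars, coloured by treatment). Larvae more than 0.3 on the other side of 0 from their parental treatment are CC 1 and HC 5 in the first and the third group, CH 2, CH 6, HC 3 and HH 5 in the second and CC 6, CH 2 and HH 5 in the fourth, and larva CH 3 reaches 1.27 in the second group.

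For each group, the gene with the highest and the gene with the lowest correlation within treatments among the 1199 genes with a symbol are given, followed by genes among the next in order that were picked for a well-known role, all after their values were seen. The genes with a symbol come from the part of the study's table that lists transcripts by their difference between CH and CC larvae. The named genes are from the ends of 1199 ranked correlations, for which no background was made. Correlations above 0.7 were found for 1, 17, 1 and 15 genes with a symbol in the first to the fourth group. Correlations below −0.7 were found for 9, 14, 2 and 16 in the same order. Roles given here are those known from mammals. The first group went with CUL2, a scaffold of the ubiquitin ligase that removes hypoxia-inducible factor (r = 0.80, rho = 0.78, r between 0.74 and 0.84 without any 1 larva). It went against HDAC5, a histone deacetylase (r = −0.77, rho = −0.84), and LYAG, the lysosomal enzyme that breaks down glycogen (r = −0.75, rho = −0.66). None of these 3 genes passed the test for the parental treatment (edgeR quasi-likelihood FDR = 0.918, 0.471 and 0.487).

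For the third group the closest gene was RD23A, which delivers ubiquitinated proteins to the proteasome and takes part in DNA repair (r = 0.70, rho = 0.70), and LYAG was again the gene most opposed (r = −0.73, rho = −0.58). The second group went with MINT, a corepressor of transcription (r = 0.80, rho = 0.75). It also went with RPN2, a subunit of the enzyme complex that adds sugar chains to new proteins in the endoplasmic reticulum (r = 0.80, rho = 0.73), and with HEPC, hepcidin, the hormone that limits iron uptake (r = 0.76, rho = 0.79). It went against GRM3, a metabotropic glutamate receptor of the nervous system (r = −0.83, rho = −0.83). HEPC belonged to the hepatocyte markers, and the median of that list had r = 0.10 and rho = 0.10 with the second group. The fourth group went with SC31A, a coat protein of vesicles that leave the endoplasmic reticulum (r = 0.80, rho = 0.81), ERBB2, a receptor tyrosine kinase (r = 0.80, rho = 0.82), and COCA1, a collagen chain (r = 0.73, rho = 0.72). It went against GRM3 (r = −0.81, rho = −0.85) and ELAV2, a neuronal RNA-binding protein (r = −0.76, rho = −0.76).

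Some members carried consecutive identifiers. There were 7 such pairs among the members, and the median correlation of their within-group deviations was 0.58, against 0.05 over 14455 consecutive pairs of all genes. It was 0.92 for mme07890 and mme07891, 0.85 for mme00828 and mme00829 and 0.75 for mme00877 and mme00878, and −0.30 for mme08628 and mme08629. In the remaining pairs it was 0.58, 0.25 and 0.03. Genes that vary together between larvae also tend to pass a rule on group means together, so this contrast may partly have been set by the choice. Of all consecutive pairs, 8.13% had a correlation above 0.5. Whether identifiers follow the order of genes on the chromosomes, and whether neighbours share reads, is not given in the sources used here. All were counted as separate members, and mme00829, mme00878, mme07890 and mme08628 were named after their values were seen.

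Markers of the main larval tissues were set beside the members. The 86 markers in 8 lists (pancreatic digestive enzymes, erythrocyte globins, striated muscle, neurons, connective tissue, retina, leukocytes and hepatocytes) included 0 members, since no member had a symbol. None was at 0 in all larvae of a group. Every marker came from genes that the study had called in CH versus CC in these same larvae. Genes chosen in this way tend to differ in opposite directions in HC versus CC and HH versus CH. The marker values are therefore a description that this choice may partly have set. In HC versus CC 0 of 86 were called by edgeR, 3 by DESeq2 and 0 by limma-voom. An unadjusted p below 0.05 in edgeR was found for 49 markers (of all genes, 6.28% were lower and 6.9% higher at this p). In HH versus CH none of these 3 tools called a marker. At the same unadjusted p there were 6 (of all genes, 7.43% lower and 7.02% higher). For the parental average 0 were called by edgeR, 1 by DESeq2 and 0 by limma-voom. At the same unadjusted p there were 20 (of all genes, 8.76% lower and 8.64% higher). All 13 digestive enzyme markers had lower fitted levels in HC than in CC, with summed levels of 30.9 to 1480 CPM in CC and 30.9 to 193 CPM in HC. In HH versus CH the summed levels were 14.6 to 31.2 CPM against 9.96 to 47.7 CPM, and 7 of 13 had lower fitted levels. Of the 12 connective tissue markers, 10 had lower fitted levels in HC than in CC and 3 of 12 in HH than in CH. Leukocyte markers were likewise lower in HC than in CC in 11 of 11 and lower in HH than in CH in 2 of 11. Striated muscle markers were lower in 14 of 16 in HC and in 1 of 16 in HH, and hepatocyte markers in 4 of 6 and 1 of 6. Neuron markers were higher in HC than in CC in 15 of 16 (14 of the 16 had an unadjusted p below 0.05 in edgeR), and retina markers in 8 of 8, and in HH they were higher than in CH in 7 of 16 and 1 of 8. Erythrocyte globins had lower fitted levels in 3 of 4 in HC than in CC and in 3 of 4 in HH than in CH. The median log2 fold changes were −0.47 and −0.45, and an unadjusted p below 0.05 in edgeR was found in 0 and 1 of the 4. For the parental average 2 globins were lower and 2 higher. The summed level of the globins had a median of 11.1 CPM in CC, 8.86 CPM in HC, 94.8 CPM in CH and 53.8 CPM in HH. The part of tissue composition in the members' levels was not tested.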

How the data were processed

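The authors deposited raw read counts per annotated transcript for each of 24 whole larvae. Per the labels' processing notes, reads were trimmed with Trimmomatic, aligned with STAR 2.6.1d and counted with HTSeq 0.11.1 (the study's methods name Fastp for trimming). The study's methods name a published *M. menidia* reference genome. An assembly name and the counting options are not stated in what was used here. Counts of the 20651 entries were summed to 20210 genes. Library sizes and tests took no reads on no feature (19.2% to 23%), ambiguous reads (0.532% to 0.627%) or reads placed at several sites (4.95% to 7.88%). Log2 CPM used TMM factors (0.858 to 1.18) and a prior count of 2. Counted reads per larva had a median of 12722156.5. This depth leaves counts of 0 to 3 in single larvae for the scarcest members.

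One edgeR 4.0.16 quasi-likelihood fit (R 4.3.3, filterByExpr with minimum count 10 and minimum total 15, 17262 genes) held all 24 larvae with a coefficient per group, and p-values were adjusted over all genes tested (Benjamini-Hochberg FDR, threshold 0.05). Standard errors were computed as the absolute log2 fold change over the root of the F statistic. The fit was tested on simulated data with independent larvae, the same dispersion for all genes and larger changes than in most members. That test does not show how the fit performs on differences of the members' size and spread. Alternatives were DESeq2 1.42.0, limma-voom (limma 3.58.1), RLE factors, no filter, entries not summed, only the groups compared, a replicate block and each larva left out. The choice of genes without each larva, with the left-out larva read against it, was added after seeing the data.

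Named members were the 12 with the largest smaller difference, the 10 lowest FDR values below 0.05 in any contrast, the 2 on each side of the edge of the selection, the 5 most abundant, the 2 most and the 2 least variable, and the 2 leading members of each group that varied together (linkage at 1 minus r of 0.5). The members and the marker lists were chosen with earlier results of these data known. No sequence was printed, since the tables used here pair no identifier of a member with one.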

Additional observations from a re-analysis of the deposited data

Results flagged for a closer look

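The 35 named members, the median over all members and the means of the 4 groups that varied together were examined within each treatment, 160 sets of 6 larvae in all. In 9 of them the highest or lowest larva stood farther from the other 5 than Dixon's critical value allows, on the log2 scale. Chance gives about 1 in 20. Members concerned were mme18589 in larva CC 4 (0.0788 CPM, next larva 1.48 CPM), mme18365 in larva CC 6 (1.60 CPM, next 4.73 CPM) and in larva HH 5 (0.0706 CPM, next 2.6 CPM), and mme08629 in larva CC 6 (0.178 CPM, next 1.89 CPM). In mme05091 larva HC 2 stood at 6.95 CPM against 0.349 CPM for the next HC larva. In mme00639 larva HH 4 stood at 14.6 CPM (next 11.7 CPM), in mme02018 larva CH 6 at 526 CPM (next 300.4 CPM), in mme06616 larva HH 5 at 98.0 CPM (next 49.9 CPM) and in mme15625 larva HC 1 at 11 CPM (next 15.5 CPM).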

How the results depend on the processing

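RLE factors, no filter and unsummed entries left all counts of calls within 1.5 times. With DESeq2, the genes called rose to 137 in HC versus CC, 216 in HH versus CH and 478 for the parental average. Of these, 67, 104 and 227 were higher. The genes called rose to 64 in HH versus HC and 4 for the interaction. Members called lower rose to 8 in HC versus CC, 9 in HH versus CH and 58 for the parental average. All 20 members called by edgeR for that average were among the 58. Limma-voom called 0 members in HH versus CH and 18 for the parental average, all of them among the 20. For that average limma-voom called 97 genes, 57 of them higher. With only the groups compared, 0 genes and 0 members were called in HH versus CH, 14 genes in HH versus HC and 544 in CH versus CC. The cause of these differences was not tested.

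With a replicate block, 39 genes and 8 members were called for the parental average, and 0 genes and 0 members in HH versus CH. Deviations of same-numbered larvae had a median correlation of −0.02 (range −0.29 to 0.25), against 0.004 (−0.33 to 0.31) for different numbers. Of the 24 larvae, 0 correlated best with their own number. The labels do not say what the numbers stand for. These correlations cannot show whether larvae shared tanks or containers in another order.

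Leaving out 1 larva gave 0 to 3 genes called in HC versus CC (more without CC 1 or CC 5), 0 to 7 in HH versus CH (0 to 1 members), 5 to 276 for the parental average (2 to 35 members), 2 to 8 in HH versus HC, and 849 to 2054 in CH versus CC (849 without CC 1, 856 without CC 2). The parental count rose by more than 1.5 times without CC 1 or HC 5 and fell by as much without 17 other larvae.

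Of the 150 members, 85 were chosen again from group medians, 83 with a minimum of 5 CPM and 81 without the bound on the rearing difference, but 141 with a prior count of 0.25, 108 with a bound of 0.2 and 114 to 130 without 1 larva; 33 were in all 24 of these last choices. A higher minimum or a narrower bound only takes genes out of the same ranking. The 83 and the 108 are therefore the members that still qualified, and do not measure stability. The median SD of the members was 0.49 in HH with a prior count of 0.25, and without 1 larva 0.49 to 0.52 in HC and 0.40 to 0.46 in HH. Fitted parental fold changes of the 35 named members were negative with DESeq2, limma-voom, RLE factors, no filter, the block and each larva left out. The rule had taken genes with lower means after parental HypOA in these same counts, so this sign was largely set by the choice. Depth limits the scarcest members: 67 are under 5 CPM.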
